A study of Caenorhabditis elegans with 4 samples.

Results

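Ligand-gated ion channel genes were compared between wild-type L4 larvae of the nematode Caenorhabditis elegans, the larvae just before the adult moult, and a wild-type mixed reference. The genes were chosen by symbol, as those named acr, lgc, glr, nmr or gab followed by a number, on probes whose platform annotation gives exactly 1 gene. This gave 72 genes of the 14901 named genes tested: 18 acr, 41 lgc, 10 glr, 2 nmr and 1 gab. In all, 4 preparations of L4 RNA were each hybridised in channel 2 of 1 array, and channel 1 of every array held wild-type mixed reference RNA. The labels give no treatment, mutation, sex, age in hours or composition of the reference, and no label ties the preparations to different cultures. The p-values therefore measure the spread between these 4 arrays, part of which may be technical. Each value is a log2 ratio between the channels after centring on the median of its array, so it is a difference from the reference and not a level of expression. Which channel is the numerator is not given. The labels put L4 against the reference, so positive values are read as likely higher in L4, and every "higher" and "lower" carries that limit. The annotation used holds 90 genes with these stems, and the other 18, among them lgc-35 and lgc-46, were not analysed here.

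Ligand-gated ion channels open when a transmitter binds them. The acr and lgc genes and gab-1 encode subunits of the Cys-loop family, in which subunits form a ring around a pore. Receptors of the acr type conduct cations in response to acetylcholine or related molecules, while the lgc genes include channels for GABA, acetylcholine, amines and betaine, and many members with no known ligand. The glr and nmr genes belong to a separate protein family, the ionotropic glutamate receptors. The nmr genes encode NMDA subunits and glr-1 to glr-8 non-NMDA subunits, while glr-9 and glr-10 were not placed by type here. In the worm, these channels act mainly in neurons and muscle, where acetylcholine excites the body wall muscle and GABA relaxes it.

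Most of the 72 channel genes had ratios near that of the reference. Their median log2 ratio was 0.02, against 0.05 over all named genes, and 37 means were above 0 and 35 below. In limma with Benjamini-Hochberg adjustment over all probes and genes, 1 channel gene was higher and 4 were lower. That is 6.94% of the members, against 23.1% of all named genes, of which 13.4% were higher and 9.66% lower. The genes that were lower were lgc-47, lgc-53, acr-3 and gab-1, and the gene that was higher was lgc-21. At an unadjusted p under 0.05, 8 were lower and 6 higher, which is 19.4% of the members and 38.6% of all named genes. A mean of 1 or more in size was found for 3 members, or 4.17%, against 20.2% of all named genes. A mean under 0.5 in size was found for 49 members, or 68.1%, against 54% of all named genes.

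A gene that did not pass is not shown to be equal to the reference. Only ratios were used, so how far the signal of each gene lay above background is unknown. The 95% interval of the mean lay within 1 log2 unit of 0 for 46 of the 72 channel genes, or 63.9%, against 47.2% of all named genes. The other channel genes could differ from the reference by more than 2-fold within their error. The standard error (SE) of the mean ran from 0.2 to 1.27, with a median of 0.24, against 0.25 over all named genes. Of the 67 channel genes with a value on every array, 25 had 1 sign on all 4, 8 positive and 17 negative, which is 37.3%, against 47.1% of all named genes. The remaining 5 had values on 3 arrays.

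**Figure D1:**
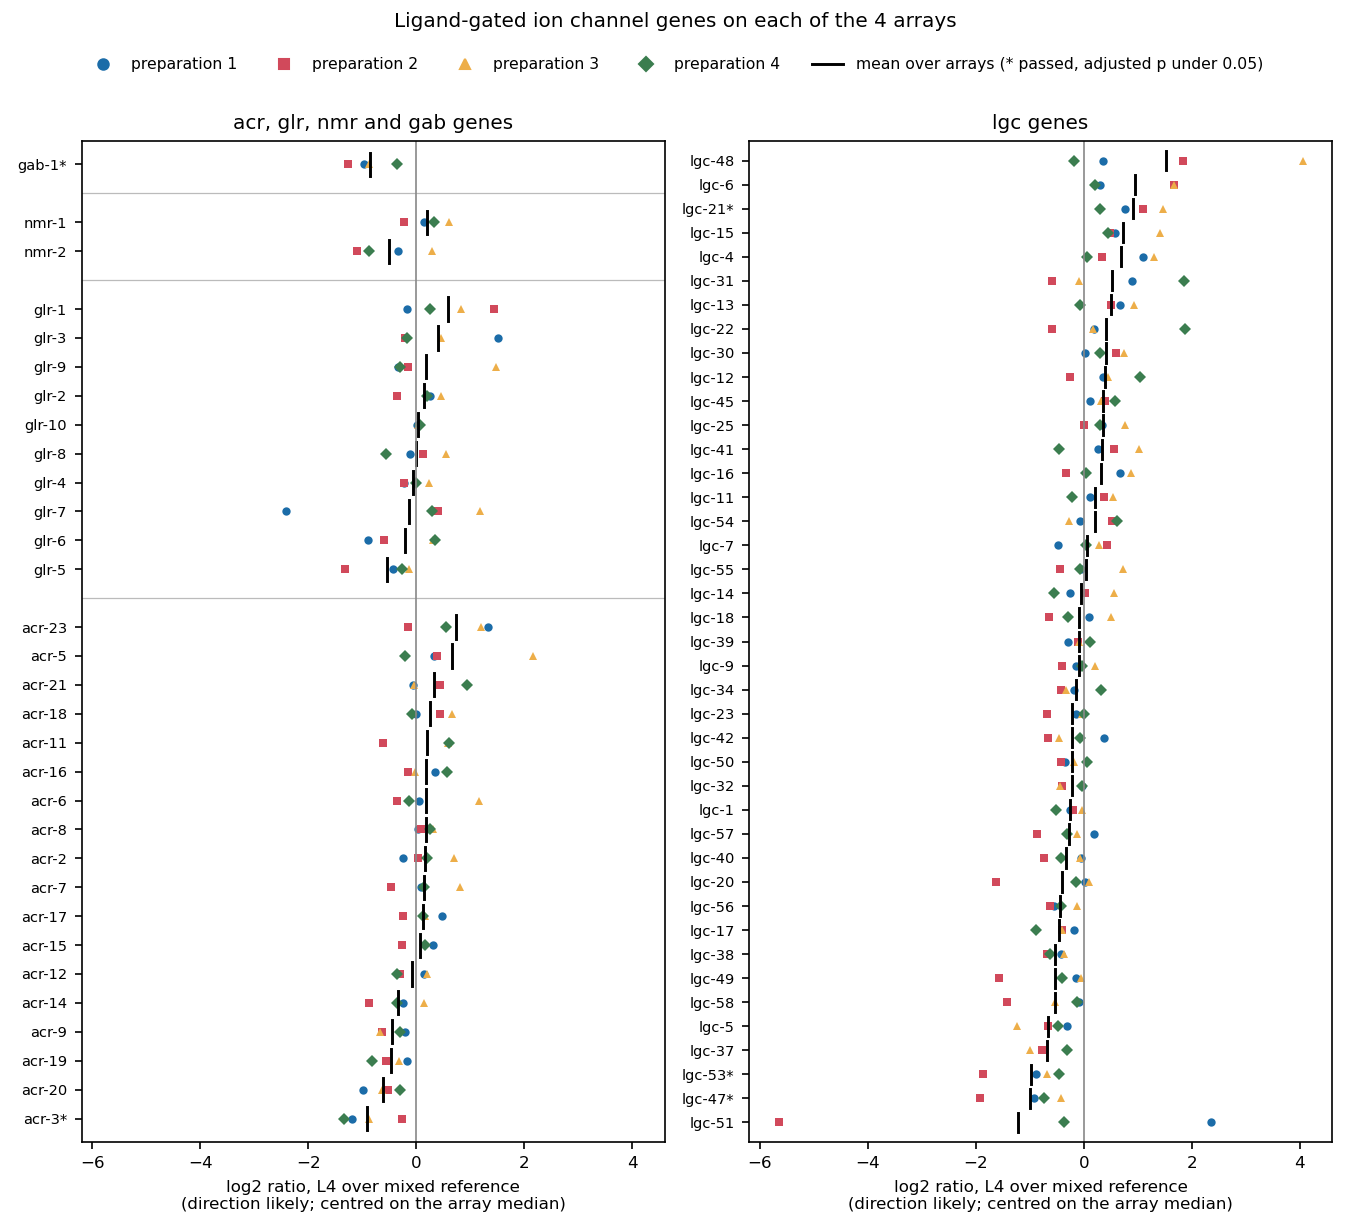
Each row is a channel gene and each symbol its log2 ratio on 1 of the 4 arrays, with the mean as a black bar and an asterisk on the 5 genes that passed. Most means lie within 0.5 of 0, and lgc-51, lgc-48 and glr-7 are the most widely spread.

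Of the 18 nicotinic acetylcholine receptor subunit genes with an acr symbol, 1 was lower and 0 higher. That is 5.56%, against 23.1% of all named genes, and the median of the acr genes was 0.16. The gene that was lower, acr-3 (K11G12.7), encodes a non-alpha subunit of a receptor of the cholinergic motor neurons. Its log2 ratio was -1.19, -0.27, -0.88 and -1.34 in preparations 1 to 4. All 4 values were negative, with preparation 2 nearest to 0. The mean was -0.92 ± 0.25 (SE, n = 4), a 1.89-fold difference (limma, adjusted p = 0.0314). The call was lost without preparation 1, 3 or 4 (limma, adjusted p = 0.139, 0.0882 and 0.103) and when arrays were centred on housekeeping genes (0.0949).

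The subunit gene acr-2 (K11G12.2) lies next to acr-3, and the protein is part of the same motor neuron receptor. Its log2 ratio was -0.25, 0.04, 0.69 and 0.20 in preparations 1 to 4, with a mean of 0.17 ± 0.23 (SE, n = 4) and values on both sides of 0. On every array acr-2 had the higher ratio, and acr-3 minus acr-2 was -0.94, -0.31, -1.57 and -1.54. The mean of that difference was -1.09 ± 0.60 (SD, n = 4), with an exact two-sided sign-flip p of 0.125, the smallest that 4 arrays allow. The other motor neuron subunit, acr-12, was at 0.15, -0.30, 0.20 and -0.36, with a mean of -0.08 ± 0.22 (SE). Preparations 1 and 3 were above 0 and preparations 2 and 4 below.

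The remaining acr genes did not pass. The gene acr-16, which encodes the subunit of the nicotine-sensitive receptor of body wall muscle, was at 0.35, -0.15, -0.02 and 0.58 in preparations 1 to 4, with a mean of 0.19 ± 0.22 (SE, n = 4). In all, 8 genes of the ACR-16 sequence group were measured, with means from -0.47 for acr-19 to 0.32 for acr-21. In limma 0 of the 8 had an unadjusted p under 0.05, against 38.6% of all named genes. Members of the ACR-8 group, acr-8 and acr-12, were at 0.17 and -0.08, and acr-6 of the UNC-38 group was at 0.18. The gene acr-14 was at -0.33 and acr-9 at -0.46, both of the ACR-16 group, and acr-9 and acr-19 were negative on all 4 arrays.

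The DEG-3 group had both the highest and, after acr-3, the lowest means among the acr genes. Its 5 measured genes with an acr symbol had means from -0.61 to 0.73. In limma none passed, against 23.1% of all named genes. An unadjusted p under 0.05 was found for acr-23 and acr-20, against 38.6% of all named genes. The highest mean was that of acr-23 (F59B1.9), whose product is a betaine receptor of muscle and neurons and a target of the drug monepantel. Its log2 ratio was 1.33, -0.16, 1.20 and 0.56 in preparations 1 to 4, with a mean of 0.73 ± 0.29 (SE, n = 4; limma, adjusted p = 0.103). Preparation 2 was the only array below 0, and without it the mean was 1.03 and the gene passed (adjusted p = 0.0406). The lowest of the group was acr-20, a close relative of acr-23, negative on all 4 arrays with a mean of -0.61 ± 0.22 (adjusted p = 0.079). The means of acr-5, acr-18 and acr-17 were 0.67, 0.26 and 0.13. The group also holds deg-3 and des-2, both negative on all 4 arrays, with means of -0.52 and -0.37 that did not pass. Both probes of acr-5 had their highest value in preparation 3, at 1.85 and 2.46, while their other values ran from -0.36 to 0.61.

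Of the 41 lgc genes, 1 was higher and 2 were lower, or 7.32%, against 23.1% of all named genes. The lgc genes had a median of -0.09 and means from -1.22 to 1.52. Those with a known ligand are described first. Of the GABA receptor subunit genes with a gab or lgc symbol, 3 were measured. All 11 of their values were negative, and 1 of the 3 passed, or 33.3%, against 23.1% of all named genes. Subunit genes under other names did not share that sign on every array, with unc-49 at 0.45, 0.12, 0.06 and 0.24 in preparations 1 to 4. The gene gab-1 (ZC482.1), which encodes a GABA receptor subunit, was at -0.97, -1.26, -0.87 and -0.35 in preparations 1 to 4. Preparation 4 was nearest to 0. The mean was -0.86 ± 0.23 (SE, n = 4), a 1.82-fold difference (limma, adjusted p = 0.0311).

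The related GABA receptor subunit gene lgc-37 (ZC482.5), which lies next to gab-1, was at -0.78, -0.99 and -0.30 in preparations 2 to 4 and had no value in preparation 1. Its mean was -0.69 ± 0.27 (SE, n = 3; adjusted p = 0.108). The gene lgc-38 was at -0.43, -0.69, -0.37 and -0.62, the narrowest spread of the 3, with a mean of -0.53 ± 0.20 (SE, n = 4; adjusted p = 0.0998). The call of gab-1 was lost without preparation 1, 2 or 3 (adjusted p = 0.132, 0.0999 and 0.0845) and with housekeeping centring (0.0687). Its mean under these alternatives ran from -0.91 to -0.73.

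Of the acetylcholine-gated anion channel genes with an lgc symbol, lgc-47 and lgc-49 were measured. The gene lgc-47 (F47A4.1) was lower, which is 1 of the 2 genes, or 50%, against 9.66% of all named genes. Its log2 ratio was -0.92, -1.93, -0.42 and -0.73 in preparations 1 to 4, with preparation 2 apart from the rest. The mean was -1.0 ± 0.28 (SE, n = 4), a 2-fold difference (limma, adjusted p = 0.0371). The gene lgc-49 was at -0.14, -1.56, -0.05 and -0.39, also negative on all 4 arrays and also lowest in preparation 2, with a mean of -0.54 ± 0.29 (adjusted p = 0.218). Leaving out any 1 preparation ended the call of lgc-47, with adjusted p from 0.0571 without preparation 3 to 0.105 without preparation 2, as did housekeeping centring (0.0975). The mean was -0.69 without preparation 2. The acc genes of the same kind of channel did not pass, with acc-1, acc-2, acc-3 and acc-4 at -0.35, 0.38, -0.03 and -0.36.

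Of the 4 lgc genes for amine-gated channels, 1 was lower, or 25%, against 9.66% of all named genes. This was lgc-53 (T21F2.1), which encodes a dopamine-gated chloride channel, at -0.88, -1.86, -0.67 and -0.46 in preparations 1 to 4. As with lgc-47, preparation 2 was the lowest and all 4 values were negative. The mean was -0.97 ± 0.27 (SE, n = 4), a 1.96-fold difference (limma, adjusted p = 0.0383). The call was lost without preparation 1, 2 or 3 (limma, adjusted p = 0.0972, 0.11 and 0.0855) and with housekeeping centring (0.0849).

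The other amine-gated channel genes did not pass. The serotonin-gated cation channel gene lgc-50 was at -0.35, -0.43, -0.17 and 0.07, with a mean of -0.22 ± 0.21 (SE, n = 4). The tyramine-gated chloride channel gene lgc-55, known for its part in the escape response, was at -0.04, -0.43, 0.73 and -0.08, with a mean of 0.05 ± 0.25. Its sign rests on preparation 3, without which the mean was -0.18. The gene lgc-40, whose product is a low-affinity serotonin receptor, had a mean of -0.32, and the betaine receptor gene lgc-41 a mean of 0.34 with values from -0.47 in preparation 4 to 1.03 in preparation 3.

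The other 32 measured lgc genes were not placed by ligand, and 1 of them passed, or 3.12%, against 23.1% of all named genes. Their median was 0.0, with 16 means on each side of 0. The gene that was higher, lgc-21 (C33G3.3), was at 0.76, 1.09, 1.47 and 0.30 in preparations 1 to 4. All values were positive, with preparation 4 nearest to 0. The mean was 0.91 ± 0.25 (SE, n = 4), a 1.87-fold difference (limma, adjusted p = 0.0347). The call was lost without preparation 1, 2 or 3 (adjusted p = 0.0951, 0.0985 and 0.108) and with housekeeping centring (0.164).

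The lgc genes with the lowest and the highest mean varied widely between arrays. The gene lgc-51 (F12B6.3) was at 2.35, -5.65 and -0.36 in preparations 1, 2 and 4, with no value in preparation 3. Its mean of -1.22 ± 1.27 (SE, n = 3; adjusted p = 0.519) turned to 1.0 without preparation 2, which left values in preparations 1 and 4 only. The gene lgc-48 (C50B6.11) was at 0.36, 1.84, 4.07 and -0.18 in preparations 1 to 4, with a mean of 1.52 ± 0.61 (SE, n = 4; adjusted p = 0.11). Preparation 3 was far above the rest, and without it the mean was 0.67. The gene lgc-6 was at 0.29, 1.66, 1.67 and 0.20, positive throughout and higher in preparations 2 and 3, with a mean of 0.96 ± 0.32 (adjusted p = 0.0659).

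Beside lgc-6, the lgc genes nearest to the threshold without passing it were lgc-15, at 0.73 ± 0.24 (SE, n = 4; adjusted p = 0.0647), lgc-5, at -0.67 ± 0.23 (adjusted p = 0.0769), and lgc-4, at 0.70 ± 0.27 (adjusted p = 0.0994). Each had 1 sign on all 4 arrays. With the arrays scaled to one spread, lgc-15 passed (adjusted p = 0.0454). Also positive on all 4 arrays were lgc-25, lgc-30 and lgc-45, with means of 0.35, 0.42 and 0.36. Negative throughout were lgc-1, lgc-17, lgc-32, lgc-56 and lgc-58, with means from -0.54 to -0.22. These genes did not pass.

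Of the 12 glr and nmr genes, 0 passed in limma in either direction, and 0 had an unadjusted p under 0.05. Over all named genes these shares were 23.1% and 38.6%. The median of the 12 genes was 0.02 and their means ran from -0.54 for glr-5 to 0.59 for glr-1. The gene glr-1 (C06E1.4) encodes a non-NMDA receptor subunit of the interneurons that control forward and backward movement. It was at -0.16, 1.45, 0.84 and 0.25 in preparations 1 to 4, with a mean of 0.59 ± 0.29 (SE, n = 4; adjusted p = 0.177). Preparations 2 and 3 were high and preparation 1 was just below 0. The gene glr-2, whose product acts with that of glr-1, had a mean of 0.14.

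The NMDA receptor takes part in memory and in the control of movement in the worm, and nmr-1 was above nmr-2 on each array. The gene nmr-1 (F07F6.6) was at 0.14, -0.24, 0.61 and 0.33 in preparations 1 to 4, with a mean of 0.21 ± 0.23 (SE, n = 4). The gene nmr-2 (T01C3.10) was at -0.34, -1.09, 0.29 and -0.87, with a mean of -0.50 ± 0.27. Both were lowest in preparation 2 and highest in preparation 3, and neither passed (adjusted p = 0.531 and 0.216). The difference between them was not tested.

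The glutamate receptor gene with the widest spread was glr-7, expressed in pharyngeal neurons, at -2.40, 0.41, 1.19 and 0.28 in preparations 1 to 4. Its mean was -0.13 ± 0.52 (SE, n = 4) with all arrays and 0.63 without preparation 1. The gene glr-3, whose product takes part in cold sensing, was at 1.51 in preparation 1 and between -0.21 and 0.46 in the others. The genes glr-2 and glr-4 were measured by 2 probes each, and their probes differed in sign. The means were -0.12 and 0.41 for the probes of glr-2 and 0.36 and -0.47 for those of glr-4, so the means of these genes average probes that disagree.

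The arrays differed in where they placed the channel genes. Over all members the median was -0.04, -0.33, 0.21 and -0.07 in preparations 1 to 4, while over all named genes it was between 0.0 and 0.03. In preparation 2, 22 of 71 channel genes with a value were above 0, and in preparation 3, 42 of 70 were. Of the 67 genes with a value on every array, 34 had their lowest in preparation 2, or 50.7%, against 29.7% of all named genes. In preparation 3, 37 had their highest, or 55.2%, against 26% of all named genes, and 4 their lowest. The lowest value was also in preparation 2 for 60% of the receptor subunits with other names described below. It was there for 57.9% of pan-neuronal markers and 70.7% of genes with an flp or nlp symbol. The highest was in preparation 3 for 45%, 5.26% and 22.7% of these 3 sets. The genes of a set share their arrays, so the counts describe 4 arrays and carry no test. In the array titles, preparations 1 and 4 share a letter code, while preparations 2 and 3 each have another. Each title also ends in what reads as a date, different for each array. What these stand for is not given, and their part in the differences between arrays was not tested.

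By stem, the acr genes had medians of 0.03, -0.27, 0.20 and 0.02 in preparations 1 to 4, and the lgc genes had medians of -0.01, -0.41, 0.04 and -0.07. The glutamate receptor genes had medians of -0.19, -0.22, 0.46 and 0.03, and 11 of the 12 were above 0 in preparation 3. Each of these 3 sets was lowest in preparation 2 and highest in preparation 3. The SD over channel genes was 0.64, 0.96, 0.82 and 0.53, against 0.95, 1.2, 1.18 and 0.85 over all named genes. The rank correlation between arrays over the members (Spearman) ran from 0.31 to 0.67, for points that share the reference RNA.

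**Figure D2:**
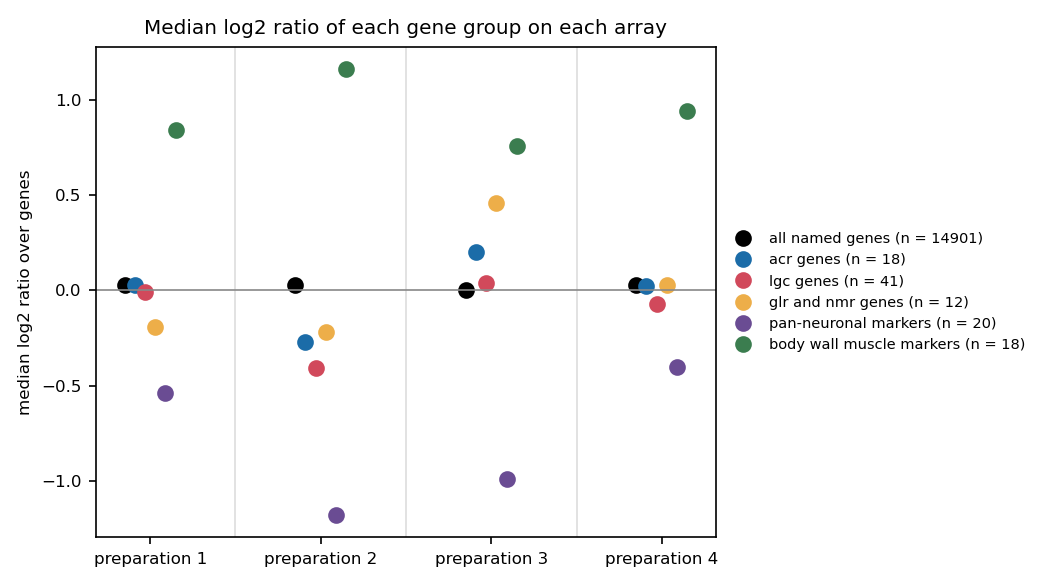
Each point is the median log2 ratio of a gene group on 1 array, with the 4 preparations on the x axis. The channel genes lie below 0 in preparation 2 and at or above 0 in preparation 3, while the pan-neuronal markers lie below 0 and the body wall muscle markers above 0 on every array.

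Channel genes that lie next to each other in the genome were set side by side, using gene order in the RefSeq annotation (WBcel235). There were 8 such pairs among protein-coding genes, and in 6 of them 1 gene was higher on every array measured. How often other pairs of genes keep 1 order was not counted, and pairs in the row from lgc-13 to lgc-17 share genes. Among the 8 pairs the widest difference was that of lgc-6 and lgc-5. There lgc-5 minus lgc-6 was -0.60, -2.32, -2.90 and -0.67 in preparations 1 to 4. The row from lgc-13 to lgc-17 had means of 0.51, -0.05, 0.73, 0.32 and -0.47, and lgc-14 was below both of its neighbours on all 4 arrays. In contrast, gab-1 and lgc-37 were within 0.48 of each other on each of the 3 arrays that measured both. The genes acr-15 and acr-16 differed by 0.19 ± 0.20 (SD, n = 3). No pair can pass 0.05 in an exact sign-flip test, whose smallest p is 0.125 with 4 arrays. Sequences of the probes were not used here, so cross-hybridisation between related neighbours was not tested.

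**Figure D3:**
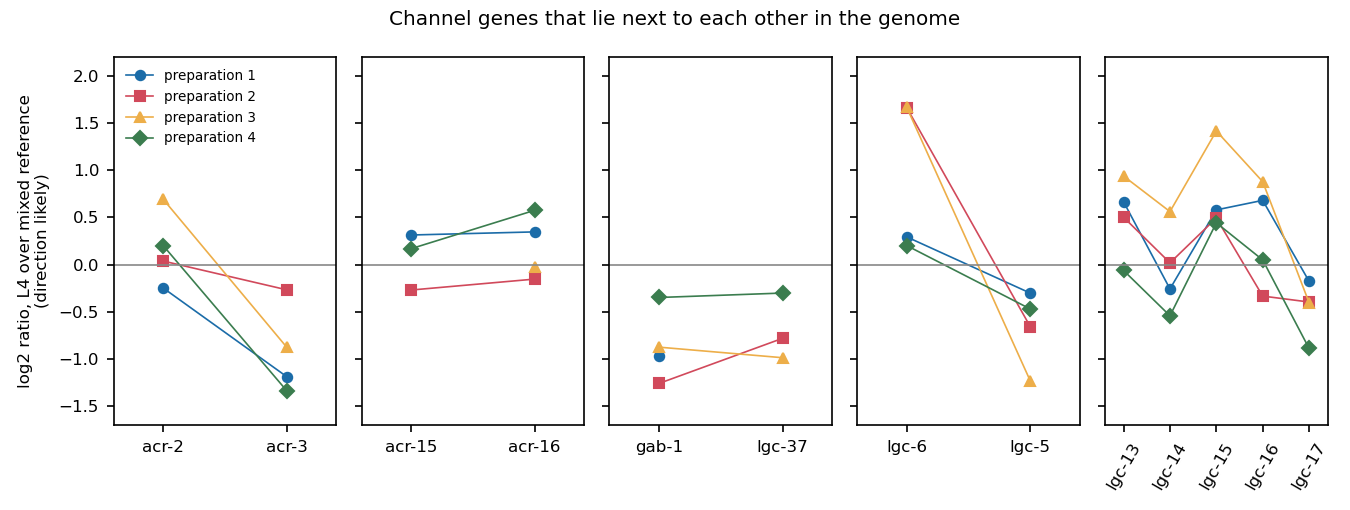
Log2 ratios of neighbouring channel genes, with each line joining the values of 1 array. On all 4 arrays acr-3 lies below acr-2 and lgc-5 below lgc-6, while gab-1 and lgc-37 stay together.

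Receptor subunits with other names were also mostly below the threshold of the test. Of 20 such genes measured of 27 listed, 1 passed, or 5%, against 23.1% of all named genes, and the median of the 20 was -0.16. The gene that passed was glc-1, lower in L4, which encodes a glutamate-gated chloride channel that ivermectin opens. It was at -1.48, -1.55, -0.89 and -0.95 in preparations 1 to 4, with a mean of -1.22 ± 0.22 (SE, n = 4; limma, adjusted p = 0.00737), and it was lower under all 10 alternatives, with adjusted p from 0.00607 to 0.0419. The levamisole receptor subunits of body wall muscle did not pass, with unc-29 at 0.28, unc-38 at -0.17, lev-1 at -0.15 and lev-8 at -0.43. Nor did the GABA receptor gene unc-49 of muscle, whose mean of 0.22 was on the other side of 0 from those of gab-1, lgc-37 and lgc-38.

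Factors that assemble, cluster or transport the receptors were called lower at shares near the 9.66% of all named genes. Of 15 measured genes for acetylcholine receptor assembly and clustering, 1 was lower, or 6.67%. This was molo-1, an auxiliary subunit of the levamisole receptor, at -1.13 ± 0.25 (SE, n = 4; adjusted p = 0.0159), and the chaperone gene ric-3 was at -0.38. The count was 0 without preparation 1, 2 or 3 and 2 without preparation 4. Of 20 genes for glutamate receptor auxiliary subunits and trafficking, 2 were lower, or 10%, the protein kinase D gene dkf-2 at -1.35 and the anaphase-promoting complex gene apc-11 at -0.80, and the GLR-1 auxiliary subunit gene sol-1 was at -0.05. That count was 1 without preparation 1, 3 or 4 and with housekeeping centring.

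Among genes for making, packaging and removing the transmitters, several were lower. Of 12 genes for GABA and glutamate, 4 were lower, or 33.3%, against 9.66% of all named genes, and the median was -0.40. These were unc-25, which encodes the enzyme that makes GABA, at -1.45 ± 0.32 (SE, n = 4), unc-46, needed to load GABA into vesicles, at -1.03 ± 0.27, the vesicular glutamate transporter gene eat-4 at -1.19 ± 0.30, and the glutamate transporter gene glt-5 at -2.07 ± 0.20. The vesicular GABA transporter gene unc-47, at -0.82, and the GABA uptake gene snf-11, at -0.67, did not pass (adjusted p = 0.0718 and 0.0562). Without preparation 1 or 3 this count was 1, and without preparation 2 it was 2. Without preparation 1, 1 gene of this list was also called higher.

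For acetylcholine, 1 of 6 genes was lower, or 16.7%, against 9.66% of all named genes. This was the choline transporter gene cho-1 at -0.76 (limma, adjusted p = 0.0452), and all 6 means were negative. That call was lost without any 1 preparation. For the amines, 3 of 9 genes were lower, or 33.3%, against the same 9.66%. These were the biopterin synthesis gene cat-4 at -1.32, the tyramine synthesis gene tdc-1 at -1.14 and the octopamine synthesis gene tbh-1 at -2.21. Without preparation 3, 1 of the amine genes was lower. Whether the transmitter genes and the receptor genes differ as groups was not tested.

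The median of the channel genes lay between those of the neuronal and body wall muscle markers, and so did that of all named genes. Of 20 pan-neuronal markers, 8 were lower, or 40%, against 9.66% of all named genes. These markers had a median of -0.64 and medians of -0.54, -1.18, -0.99 and -0.40 in preparations 1 to 4. All 20 means were below 0. Of 75 flp and nlp genes, most of them for neuropeptides, 55 were lower and 2 higher, or 76%, against 23.1% of all named genes. The set was taken by symbol and includes epidermal antimicrobial peptide genes of the nlp-29 group, so it is not purely neuronal. The median of the set was -1.32, and the range over alternatives was 42 to 55 lower. Of 18 body wall muscle markers, with a median of 0.84, 11 were higher, or 61.1%, against 13.4% of all named genes. Of 7 pharyngeal muscle markers 1 was lower, or 14.3%, against 9.66%. On each array the median of the channel genes was above that of the neuronal and below that of the body wall muscle markers. The median of all named genes, at 0.03, 0.03, 0.0 and 0.03 in preparations 1 to 4, lay there as well. The channel gene median was below that of the pharyngeal muscle markers, at -0.24, 0.04, -0.25 and 0.16, in preparations 2 and 4 only. The part of these tissues in the values of the channel genes was not tested. In RNA of whole worms, fewer cells of a type and less RNA per cell cannot be told apart.

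**Figure D4:**
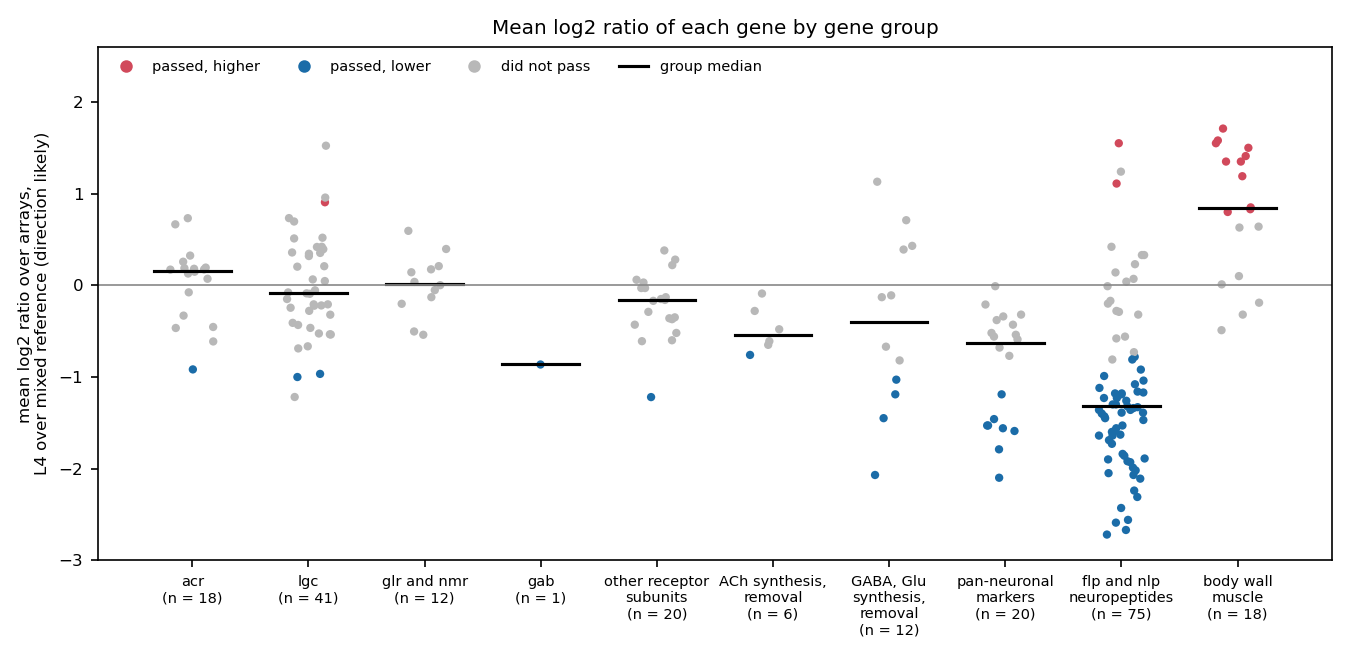
Each point is the mean log2 ratio of a gene over the arrays, grouped by family or list, coloured where it passed and with the group median as a bar. The medians of the acr, the lgc and the combined glr and nmr genes lie between -0.09 and 0.16. They compare with -0.64 for pan-neuronal markers, -1.32 for flp and nlp genes and 0.84 for body wall muscle.

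Germline markers varied between the preparations, with a median SD of 1.24 for sperm and 1.39 for oocyte genes, against 0.44 for the channel genes. Of 30 major sperm protein genes, transcribed when sperm form in the L4 hermaphrodite, 29 were higher, or 96.7%, against 13.4% of all named genes. The medians of the 30 genes were 3.52, 3.53, 2.03 and 1.12 in preparations 1 to 4. Among oocyte and eggshell genes, 9 of 16 were lower, or 56.2%, against 9.66% of all named genes. The medians of the 16 genes were -1.15, -0.05, -2.93 and -2.76. Without preparation 3 the number lower was 0 of 16, and leaving out preparation 4 or 2 gave 2 or 15. Values were present for 21084 to 21489 of 21632 probes on each array, and the arrays correlated at 0.56 to 0.72 over probes.

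The calls on the channel genes depended on the centring and on single arrays. With housekeeping centring 0 of 72 passed in limma, against 14.5% of all named genes, and 1 was higher and 6 lower at an unadjusted p under 0.05. The genes of that centring lay at 0.28, 0.06, -0.52 and 0.36 in preparations 1 to 4 after centring on all probes. Without preparation 1, 0 passed, against 15.3% of all named genes, with 5 higher and 6 lower at an unadjusted p under 0.05. Without preparation 3, 0 passed, against 12.7%, with 2 higher and 8 lower unadjusted. Without preparation 2, acr-3 was lower and acr-23 higher, against 16.7% of all named genes. Without preparation 4, gab-1 and lgc-53 were lower and lgc-21 higher, against 19.7%. The same 5 genes passed with values as deposited (23.4% of all named genes), with genes measured on all 4 arrays (24.3%), with robust shrinkage (23.2%) and with every probe tested alone (23.5%). With the arrays scaled to one spread, lgc-15 joined them (24.7%). The means of the 5 genes kept their sign under all 10 alternatives.

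**Figure D5:**
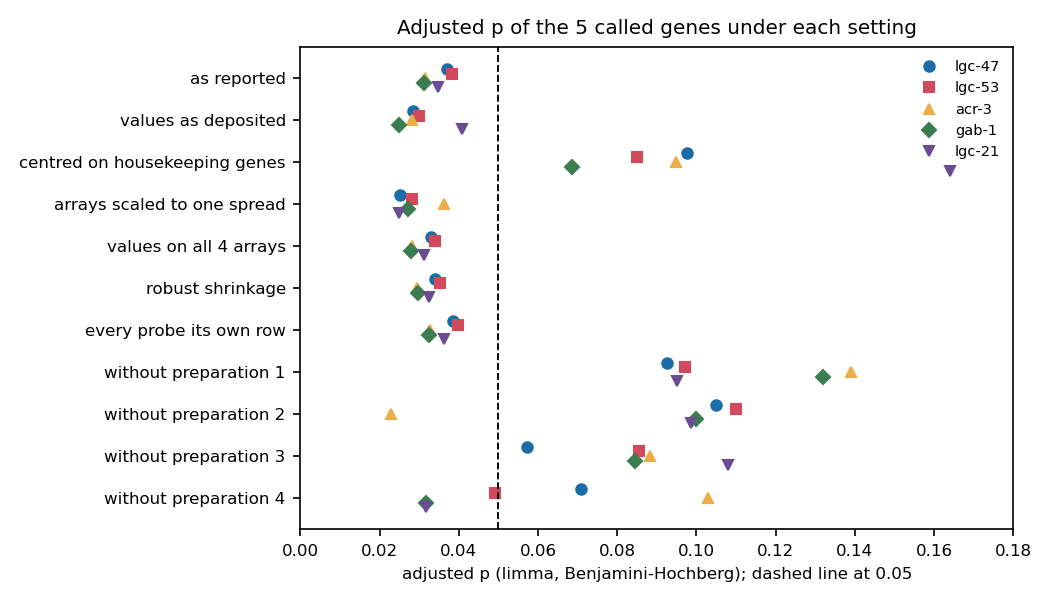
Adjusted p of the 5 channel genes that passed, under the reported setting and each of 10 alternatives, with the threshold of 0.05 dashed. With housekeeping centring and without preparation 1 or 3, each of the 5 genes lies above the threshold.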

How the data were processed

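Per the deposited table, each array has 1 log2 ratio for a probe, over 21632 probes in all. The authors' unit is not named, and log2 was inferred because 2 raised to a value below 0 fell on a grid of 0.001 for 100% of these values, with a tolerance of 0.02 grid steps. How the authors corrected background, normalized, centred and assigned dyes before they deposited these log2 values is not given in the sources used here. As deposited, the column medians were -0.047, 0.007, -0.1 and -0.042, and signs were kept. Of the probes, 16450 named 1 gene, 247 several and 4935 none. All 72 member gene IDs had the same symbol in RefSeq.

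Arrays were centred on their medians, probes of a gene were averaged, and values on at least 3 arrays were required. Fits that left out 1 preparation required 1 array fewer. With limma 3.58.1 in R 4.3.3, each mean was set against 0 in a two-sided test, adjusted by Benjamini-Hochberg over all probes and genes with a threshold of 0.05. The reference counts as 1 sample, so its own spread is left out. The SE is limma's moderated one, with 5.15 prior degrees of freedom. The calculation was run on simulated data with independent normal noise and variances drawn from limma's fitted prior. Such data follow the model by construction, so the run checks the calculation and not how well the model describes these arrays. The SE depends on the number of arrays with a value and on the spread between them, and no intensities were used.

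The members, lists and alternatives were chosen with earlier results of these data known. Genes given with every array were those that passed, the 3 with the highest SD and a list fixed with the design. The values on every array of lgc-6, lgc-37, lgc-38, lgc-49 and unc-49 were chosen after they were seen. The same holds for the other genes named with a mean. Protein features, planned in the design, were not analysed here. Other calculations used Python 3.11.15, pandas 2.3.3 and matplotlib 3.10.9.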

Additional observations from a re-analysis of the deposited data

Results flagged for a closer look

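In each of 3 channel genes with a value on all 4 arrays, 1 array stood apart from the others by most of the gene's range (Dixon's criterion, 67 genes tested). By chance alone about 1 in 20 groups shows such a gap. The gene lgc-20 was at -1.62 in preparation 2 and between -0.15 and 0.11 in the others. The glutamate receptor family gene glr-9 was at 1.48 in preparation 3 and between -0.33 and -0.15 in the others. The gene lgc-15 was at 1.42 in preparation 3 and between 0.44 and 0.58 in the others.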

How the results depend on the processing

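No paired analysis was possible because the labels give 1 group. The counts of members higher and lower, 1 and 4, were 0 and 0 with housekeeping centring and ranged from 0 to 1 and 0 to 2 when 1 preparation was left out. With arrays scaled to one spread, 2 members were higher, both lgc genes. With housekeeping centring 0 acr and 0 lgc genes were called in either direction, and leaving out 1 preparation gave 0 to 1 acr genes lower, 0 to 1 acr genes higher, 0 to 1 lgc genes lower and 0 to 1 lgc genes higher. Values as deposited, only genes on all 4 arrays, robust shrinkage and separate probes each gave 1 higher and 4 lower. The medians of the members and stems moved by less than their spread between arrays. Of 715 member values under alternatives, 30 in 19 genes changed sign, and none of these was called. With housekeeping centring the ratios of acr-15, glr-10, glr-8 and lgc-55 were -0.16, -0.0042, -0.0445 and -0.0001. As deposited, glr-10 and glr-8 were at -0.0257 and -0.0443, and with arrays scaled glr-8 was at -0.0842. Leaving out 1 preparation gave ranges of -0.0134 to 0.60 for acr-11, -0.17 to 0.016 for acr-12, -0.050 to 0.24 for acr-15, -0.0031 to 0.31 for acr-2, -0.15 to 0.36 for acr-6 and -0.0729 to 0.35 for acr-7. They were -0.15 to 0.0038 for glr-4, -0.39 to 0.026 for glr-6, -0.57 to 0.63 for glr-7, -0.18 to 0.19 for glr-8 and -0.26 to 0.34 for glr-9. For lgc genes they were -0.26 to 0.11 for lgc-14, -0.28 to 0.11 for lgc-18, -0.0682 to 0.75 for lgc-22, -3.0 to 1.0 for lgc-51, -0.18 to 0.20 for lgc-55, -0.0555 to 0.25 for lgc-7 and -0.19 to 0.011 for lgc-9. The cause of these changes was not tested. The number of arrays limits the precision, and signal over background is unknown, since only ratios were used.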

Other observations

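A probe annotated to both acr-6 and ZK973.9 was left out of the comparison. It was at 0.43, 0.81, -0.62 and 0.32 in preparations 1 to 4, while the probe of acr-6 alone was at 0.04, -0.35, 1.15 and -0.13. The probes were on opposite sides of 0 in preparations 2, 3 and 4.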
